A study of Mus musculus with 8 samples.

Results

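The genes described here are 10 components of the MHC class I pathway and the immunoproteasome: B2m, H2-K1, H2-D1, Tap1, Tap2, Tapbp, Psmb8, Psmb9, Psmb10 and Nlrc5. They were found by matching these symbols to the Ensembl identifiers of the deposited table. All 10 were among its 46517 genes, and all 10 were among the 14139 genes that were tested, which needed a normalised count of 10 or more in 4 or more libraries. A normalised count is the number of reads on a gene divided by 1 size factor for its library.

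The libraries were made from osteoclasts, the multinucleated cells that resorb bone, grown from bone marrow of 4 global Elmo1-/- mice and 4 Elmo1+/- mice. Control libraries carry WT in their titles, while their genotype label is Elmo1+/-, so control mice kept 1 intact copy of Elmo1, which encodes an adaptor for the activation of the GTPase Rac. Femur marrow came from mice 6 to 8 weeks old. After an overnight step on dishes, the cells left in suspension were grown with 10% medium conditioned by L929 cells as a source of M-CSF, and osteoclasts were obtained over 7 days with 50 ng/ml GST-RANKL, which drives their formation. The labels describe both as added together, while the study's methods place growth in the conditioned medium first and give GST-RANKL to the attached, replated cells. Both genotypes were treated alike, and polyadenylated RNA was sequenced as paired reads of 75 bp.

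MHC class I molecules show peptides from inside the cell to CD8 T cells. A heavy chain, such as those encoded by H2-K1 and H2-D1, pairs with beta-2-microglobulin (B2m). Peptides are cut by the proteasome, carried into the endoplasmic reticulum by the transporter TAP1-TAP2, and loaded with the help of tapasin (Tapbp). The immunoproteasome is a form of the proteasome in which Psmb8, Psmb9 and Psmb10 take the places of the catalytic subunits Psmb5, Psmb6 and Psmb7, and interferon is known to raise it. Nlrc5 is a transactivator of class I genes that acts at a promoter module in which an X2 box precedes a Y box.

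The promoters were searched for the X2 and Y boxes. Of the 10 genes, 8 have a window in the RefSeq promoter set (GRCm38.p6), and Tap2 and Nlrc5 have none there. The 250 bases before each start were searched on both strands for TGACG followed by ATTGG with 18 to 22 bases between them. The pair was found in 3 of the 8 genes, B2m, H2-K1 and H2-D1, and in 2 of 11 other class I heavy chain genes with a window, H2-M3 and H2-Q7. Among all 32851 windows, 81 (0.247%) held it. The pair was not found in the windows of the 5 other members or of the 9 other heavy chain genes. The 5 stretches that hold it are shown so that their letters and spacing can be compared, on the strand of the gene, with the matched letters in capitals.
B2m: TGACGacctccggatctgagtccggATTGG
H2-K1: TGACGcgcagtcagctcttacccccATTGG
H2-D1: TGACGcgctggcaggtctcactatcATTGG
H2-M3: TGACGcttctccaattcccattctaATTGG
H2-Q7: TGACGtgtaacagttctcacccctATTGG
The B2m stretch lies at chr2:122147609-122147638 on the plus strand and begins 78 bases before the start. The H2-K1 stretch lies at chr17:34000359-34000388 on the minus strand and begins 41 bases before the start in 1 RefSeq window and 55 bases before it in the other. The H2-D1 stretch lies at chr17:35262993-35263022 on the plus strand and begins 101 bases before the RefSeq start, inside the first exon of a longer transcript in GENCODE. In B2m, H2-K1, H2-D1 and H2-M3 the gap between the matched letters was 20 bases, and in H2-Q7 it was 19 bases. The H2-M3 stretch is at chr17:37270188-37270217 and the H2-Q7 stretch at chr17:35439091-35439119, both on the plus strand.

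Interferon elements were searched for in the same windows. GAAANNGAAA, the core of the interferon-stimulated response element, was found in 1 of the 8 genes, B2m, in 2 of the 11 other heavy chain genes, H2-T22 and H2-T23, and in 2.98% of all windows. TTCNNNGAA, the core of the gamma-interferon activation site, was found in 1 of the 8 genes, Psmb8, 97 bases before its start, in 1 of the 11 other heavy chain genes, H2-M3, and in 7.02% of all windows. The longer B2m stretch below is shown because it holds the response element upstream of the X2 and Y letters, all 3 in capitals. It covers chr2:122147542-122147641, the bases 145 to 46 before the start.
B2m: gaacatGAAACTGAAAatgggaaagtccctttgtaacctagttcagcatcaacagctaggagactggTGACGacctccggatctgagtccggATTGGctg
A match is a description of letters in these windows and was not tested as a binding site.

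The libraries held 20905502 to 40846651 reads on genes. Elmo1 itself was at 274 to 316 normalised counts in the Elmo1-/- libraries and at 1423 to 1769 in the Elmo1+/- libraries, a log2 fold change of -2.44 (SE 0.09, adjusted p = 8.4e-06, limma). It was the 1 gene of 14139 called between the genotypes (0.00707%). The libraries also differed along a line that the genotype does not follow. The first principal component held 62.3% of the variance. It set the libraries numbered 1 and 2 of both genotypes apart from those numbered 3 and 4. Elmo1-/- library 1 was at the far end, at -52.3. Elmo1-/- library 2 lay nearer the middle at -6.03, beside -23.1 and -26.3 for Elmo1+/- libraries 1 and 2. Libraries numbered 3 and 4 were at 24.6 to 31.9. On the second component, with 10.9% of the variance, Elmo1-/- library 2 was highest, at 29.7. The study's methods give 2 mice per condition in each experiment, but which mice shared an experiment is not stated, so what the numbers stand for is not known.

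The class I genes were expressed in every library, and B2m, H2-D1 and H2-K1 stood far above the others. Levels between genes are compared as normalised counts per kilobase of the main annotated transcript, as mean ± SD over the 8 libraries. B2m was highest at 88155 ± 17986 per kilobase, followed by H2-D1 at 29394 ± 7780 and H2-K1 at 18279 ± 6082. H2-D1 was above H2-K1 in 8 of 8 libraries, although the ranges of both genes overlap across libraries. A lower tier held Tapbp at 3015 ± 975, Psmb8 at 2806 ± 654 and Psmb10 at 1814 ± 382 per kilobase. Tapbp was above Psmb8 in 5 of 8 libraries, so the order of these neighbours was not fixed. Tap1 at 819 ± 225 and Psmb9 at 815 ± 151 per kilobase could not be ordered either, with Tap1 above in 4 of 8 libraries. Tap2 followed at 533 ± 46.9 per kilobase, and Nlrc5 was lowest at 189 ± 46.6. Psmb8 was above Psmb10, and Tap2 above Nlrc5, in 8 of 8 libraries.

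Loss of Elmo1 left no called difference in any of the 10 genes. The log2 fold changes ran from 0.00 for H2-D1 to 0.28 for Tap1, with a median of 0.12 beside -0.00 over all genes tested. The number called was 0 of 10 by limma, edgeR and DESeq2, and none had an unadjusted p under 0.05, beside 133 of 14139 genes. Adjusted p was 1.00 for each. In none did the 4 values of one genotype lie wholly above or below those of the other, which held for 0.941% of all genes tested. The point estimates of all 10 were above 0, but 6 of them were below 0 once Elmo1-/- library 1 was left out.

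**Figure D1:**
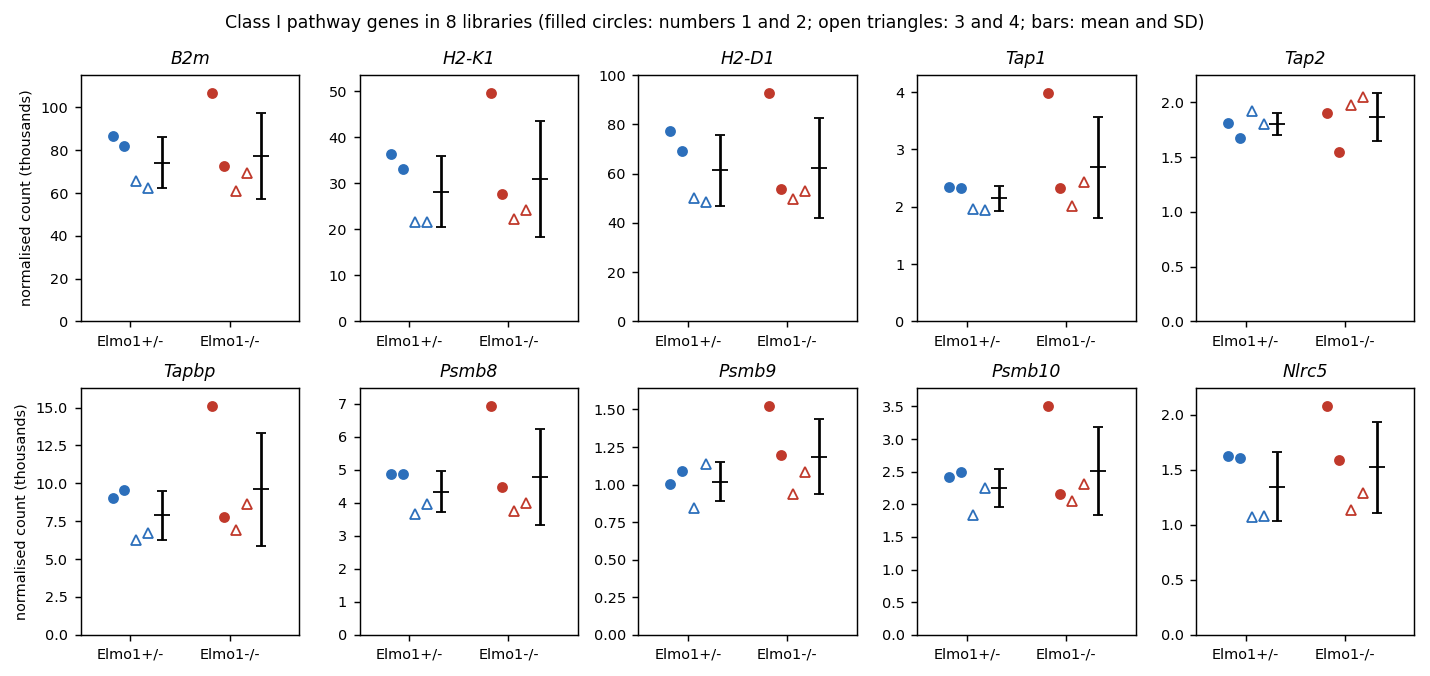
Normalised counts, divided by 1000, with axes from 0, of the 10 genes in each library, with filled circles for libraries numbered 1 and 2, open triangles for 3 and 4, and bars for mean and SD of 4 libraries. The genotypes overlap in every panel, and Elmo1-/- library 1 is the highest point in 9 of 10 panels, Tap2 being the exception.

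The light chain and the heavy chains came first in abundance. B2m (chromosome 2, 122147686 to 122153083, plus strand, GRCm38) was at 106812, 72564, 61083 and 69129 normalised counts in Elmo1-/- libraries 1 to 4. In Elmo1+/- libraries 1 to 4 it was at 86827, 82016, 65558 and 62519. Libraries numbered 1 and 2 were the higher ones in both genotypes, and the genotypes overlapped. The B2m log2 fold change was 0.04 (SE 0.19, 95% interval -0.38 to 0.46), and without Elmo1-/- library 1 it was -0.12.

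H2-K1 (chromosome 17, 33996017 to 34000347, minus strand) encodes the K heavy chain. It was at 49707, 27745, 22235 and 24269 in Elmo1-/- libraries 1 to 4 and at 36489, 33129, 21647 and 21524 in Elmo1+/- libraries 1 to 4. Library 1 of the Elmo1-/- group was 1.36 times the next highest library. The log2 fold change was 0.10 (SE 0.28, 95% interval -0.53 to 0.73), and -0.15 without that library.

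H2-D1 (chromosome 17, 35262730 to 35267499, plus strand) encodes the D heavy chain. Its normalised counts were 92819, 53934, 49535 and 52761 in Elmo1-/- libraries 1 to 4 and 77490, 69201, 50117 and 48435 in Elmo1+/- libraries 1 to 4. Only the first Elmo1-/- library was above the first 2 Elmo1+/- libraries. Between the genotypes the log2 fold change was 0.00 (SE 0.23, 95% interval -0.52 to 0.53), and -0.21 without Elmo1-/- library 1. Of the 75-base windows of the main H2-D1 transcript, 7.10% also occur in transcripts of other genes, and for H2-K1 it was 1.55%, so a small part of their reads could belong to relatives.

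Next are the peptide transporter and its loading partner. Tap1 (chromosome 17, 34187553 to 34197225, plus strand) was at 3987, 2326, 2010 and 2439 in Elmo1-/- libraries 1 to 4. The Elmo1+/- libraries held 2343, 2334, 1958 and 1950. Elmo1-/- libraries 2 to 4 lay within or close to the Elmo1+/- range, while library 1 was 1.64 times the next highest. Tap1 had the highest log2 fold change of the 10 genes, 0.28 (SE 0.19, 95% interval -0.16 to 0.72), which was 0.07 without Elmo1-/- library 1.

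Tap2 (chromosome 17, 34203527 to 34216321, plus strand), the partner of Tap1 in the transporter, behaved differently across libraries. It was at 1901, 1550, 1973 and 2044 in Elmo1-/- libraries 1 to 4 and at 1808, 1676, 1919 and 1801 in Elmo1+/- libraries 1 to 4. The highest library was only 1.32 times the lowest, the narrowest range of the 10 genes, and the top library was Elmo1-/- library 4. The log2 fold change was 0.05 (SE 0.10, 95% interval -0.17 to 0.26), and -0.000185 without Elmo1-/- library 4. Exons of Tap2 overlap those of Gm20496 and Gm15821 on the opposite strand. Of the 75-base windows of the main Tap2 transcript, 8.97% also occur in transcripts of other genes.

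Tapbp (chromosome 17, 33915899 to 33929292, plus strand) encodes tapasin, which holds empty class I molecules at the transporter. It was at 15097, 7761, 6910 and 8626 in Elmo1-/- libraries 1 to 4 and at 9008, 9546, 6238 and 6710 in Elmo1+/- libraries 1 to 4. This was the widest range of the 10 genes, 2.42-fold from lowest to highest. The log2 fold change was 0.24 (SE 0.25, 95% interval -0.32 to 0.80), and -0.00 without Elmo1-/- library 1. Exons of Tapbp overlap those of Zbtb22 on the same strand, so some reads cannot be assigned to 1 of the 2 genes. They also overlap Gm19412 on the opposite strand, and 16.5% of the 75-base windows of the main Tapbp transcript occur in Gm19412 transcripts.

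The inducible proteasome subunits come next. Psmb8 (chromosome 17, 34197721 to 34201454, plus strand) was at 6931, 4495, 3764 and 3996 in Elmo1-/- libraries 1 to 4 and at 4859, 4877, 3664 and 3964 in Elmo1+/- libraries 1 to 4. Its log2 fold change was 0.11 (SE 0.19, 95% interval -0.32 to 0.55), and -0.08 without Elmo1-/- library 1. Again the libraries numbered 1 and 2 were the higher ones in both genotypes.

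Psmb9 (chromosome 17, 34181987 to 34187764, minus strand) was at 1522, 1200, 936 and 1084 in Elmo1-/- libraries 1 to 4. In the Elmo1+/- libraries it was at 1005, 1089, 845 and 1137. The log2 fold change was 0.20 (SE 0.15, 95% interval -0.14 to 0.55), and 0.08 without Elmo1-/- library 1. Psmb9 and Tap1 lie head to head on opposite strands and overlap in exons, and 10.8% of the 75-base windows of the main Psmb9 transcript also occur in Tap1 transcripts. Whether reads were counted by strand is not given in the sources used here.

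Psmb10 (chromosome 8, 105935735 to 105938444, minus strand) lies outside the MHC. It was at 3504, 2156, 2054 and 2308 in Elmo1-/- libraries 1 to 4 and at 2414, 2500.4, 1835 and 2251 in Elmo1+/- libraries 1 to 4. Elmo1-/- library 1 was 1.40 times the next highest library. Psmb10 had a log2 fold change of 0.13 (SE 0.17, 95% interval -0.26 to 0.53), and -0.04 without that library.

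Nlrc5 (chromosome 8, 94434356 to 94527272, plus strand), the regulator, was at 2077, 1586, 1135 and 1287 in Elmo1-/- libraries 1 to 4. The Elmo1+/- libraries held 1624, 1610, 1069 and 1078. As for the heavy chain genes, numbers 1 and 2 were above numbers 3 and 4 in both genotypes. Nlrc5 had a log2 fold change of 0.17 (SE 0.22, 95% interval -0.32 to 0.66), and 0.01 without Elmo1-/- library 1.

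The intervals are from the fit without a term for library number, and they bound what 4 against 4 libraries could show in that fit. The highest upper bound was that of Tapbp, a 1.74-fold higher level in Elmo1-/- osteoclasts, and the lowest lower bound was that of H2-K1, 0.692 of the Elmo1+/- level. Tap2 had the tightest interval, from 0.889 to 1.20 of the Elmo1+/- level. Differences inside these bounds could not be told from none at this spread between libraries.

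The ratio of each inducible subunit to the constitutive subunit it replaces was compared next, since a ratio within a library does not depend on its size factor. Psmb8 reads per Psmb5 read were 1.60, 1.17, 0.966 and 1.07 in Elmo1-/- libraries 1 to 4 and 1.17, 1.16, 0.934 and 0.994 in Elmo1+/- libraries 1 to 4. The log2 difference was 0.15 (SE 0.18), with an exact two-sided permutation p = 0.514 over 70 arrangements and an adjusted p of 0.838 over 4 ratios. Without Elmo1-/- library 1 it was 0.00548, and without Elmo1-/- library 3 it was 0.247. Per kilobase, Psmb8 was below Psmb5 in every library, at 0.516 to 0.881 of it. Of the 75-base windows of the main Psmb5 transcript, 40.0% also occur in transcripts of other genes, so the level of this ratio is uncertain.

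Psmb9 reads per Psmb6 read were 0.164, 0.155, 0.117 and 0.142 in Elmo1-/- libraries 1 to 4 and 0.110, 0.135, 0.106 and 0.132 in Elmo1+/- libraries 1 to 4. This ratio had the largest genotype difference of the 4, with a log2 difference of 0.26 (SE 0.14), an exact two-sided permutation p = 0.114 and an adjusted p of 0.457. Without Elmo1-/- library 1 the difference was 0.19. Per kilobase Psmb9 stood at 0.0627 to 0.0971 of Psmb6.

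Psmb10 reads per Psmb7 read were 0.869, 0.521, 0.460 and 0.539 in Elmo1-/- libraries 1 to 4 and 0.590, 0.622, 0.412 and 0.478 in Elmo1+/- libraries 1 to 4. The log2 difference was 0.16 (SE 0.24, exact two-sided permutation p = 0.629, adjusted p 0.838), and -0.04 without Elmo1-/- library 1. Of the 75-base windows of the main Psmb7 transcript, 24.1% also occur in Nek6 transcripts. B2m reads per read of both heavy chains together were 0.847 ± 0.0678 (SD, n = 4) in Elmo1-/- and 0.843 ± 0.0727 (SD, n = 4) in Elmo1+/- libraries. The log2 difference of that ratio was 0.01 (SE 0.09, exact two-sided permutation p = 0.971). The smallest exact permutation p that 4 against 4 libraries allow was 0.0286 before adjustment, and none of the 4 ratios reached it. The libraries of the genotypes overlapped in all 4 ratios. Set against the Elmo1+/- library of the same number, the Elmo1-/- library was the higher one in 4 of 4 pairs for Psmb8 to Psmb5 and for Psmb9 to Psmb6. An exact sign-flip test over 4 pairs cannot give a p below 0.125, which both ratios had.

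**Figure D2:**
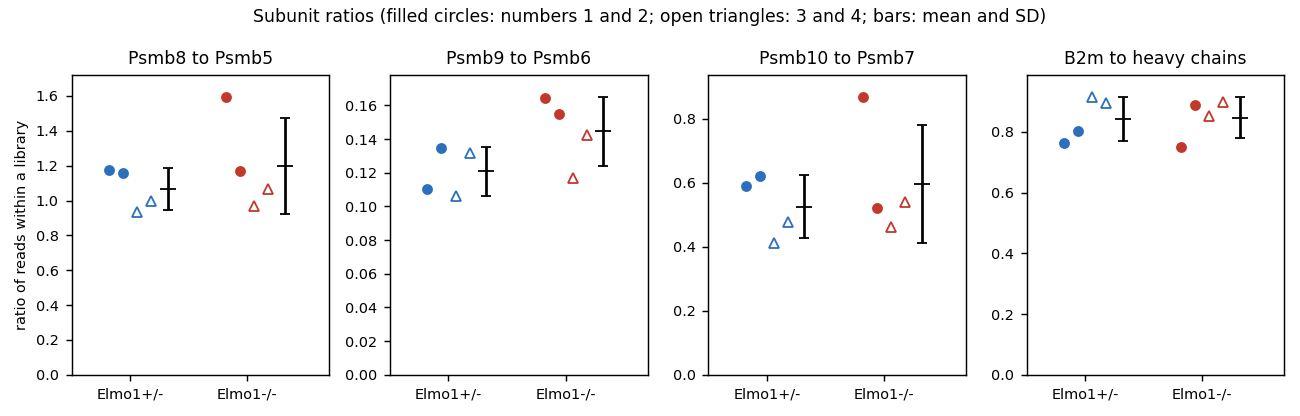
Ratio of reads within each library for 3 inducible subunits over the constitutive subunits they replace, and for B2m over H2-K1 plus H2-D1 (axes from 0; filled circles numbers 1 and 2, open triangles 3 and 4, bars mean and SD of 4 libraries). The genotypes overlap in each panel, and Elmo1-/- library 1 is the highest point in the first 3.

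The wider pathway held no called gene between the genotypes either. Of 65 further pathway genes, 58 were tested and 0 passed limma's threshold (0 by edgeR and 0 by DESeq2). Irf1, an interferon-induced activator of class I and immunoproteasome genes, was at 1552, 1327, 1039 and 1140 in Elmo1-/- libraries 1 to 4. In Elmo1+/- libraries 1 to 4 it was at 1037, 1168, 1002 and 1041. The genotypes overlapped, and the log2 fold change was 0.24 (SE 0.12, adjusted p 1.00, limma). Rfx5, a subunit of the complex that binds the X box, had a log2 fold change of 0.09 (SE 0.19), and Nfyb, which binds the Y box, had -0.01 (SE 0.10). Ciita, the class II transactivator related to Nlrc5, was too low to be tested.

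Among the 11 other class I heavy chain genes tested, log2 fold changes ran from -0.18 for H2-K2 to 0.49 for H2-M2, with a median of 0.08. Their intervals were wide, with a median SE of 0.40 beside 0.13 over all genes tested. H2-T23, which encodes Qa-1, had 0.11 (SE 0.35) and H2-M3, which presents formylated peptides, had 0.05 (SE 0.24). H2-Q4 had 0.06 (SE 0.40), H2-Q6 -0.00 (SE 0.60), H2-Q7 0.04 (SE 0.57) and H2-T22 0.19 (SE 0.28). Reads of these relatives are hard to separate, since 27.5% of the 75-base windows of H2-Q7, 26.1% of those of H2-T22 and 21.1% of those of H2-Q6 occur in transcripts of other genes. The partners of B2m outside antigen presentation to CD8 T cells gave 0.06 (SE 0.27) for Fcgrt, the neonatal Fc receptor, and -0.12 (SE 0.11) for Mr1.

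Most of the general machinery of the endoplasmic reticulum and of the proteasome was steadier. The chaperones of peptide loading had log2 fold changes of 0.00 (SE 0.11) for Calr, 0.03 (SE 0.07) for Canx, 0.03 (SE 0.11) for Pdia3 and 0.04 (SE 0.10) for Tapbpl. Erap1, which trims peptides, had 0.02 (SE 0.10), and the 10 chaperone and trimming genes ran from -0.08 for Npepps to 0.05 for Lap3. Psmb5, Psmb6 and Psmb7 had -0.04 (SE 0.07), -0.05 (SE 0.09) and -0.03 (SE 0.07). The proteasome activator subunits Psme1 and Psme2 had 0.17 (SE 0.20) and 0.06 (SE 0.16), and the assembly chaperone Psmg4 was lowest of its list at -0.07 (SE 0.19). The SEs of Psme1 and Psmg4 were near the median SE of the 10 genes, 0.19. Of the 75-base windows of Psme2, 51.7% also occur in Psme2b transcripts. The 11 core subunits ran from -0.07 for Psmb1 to 0.07 for Psma6.

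**Figure D3:**
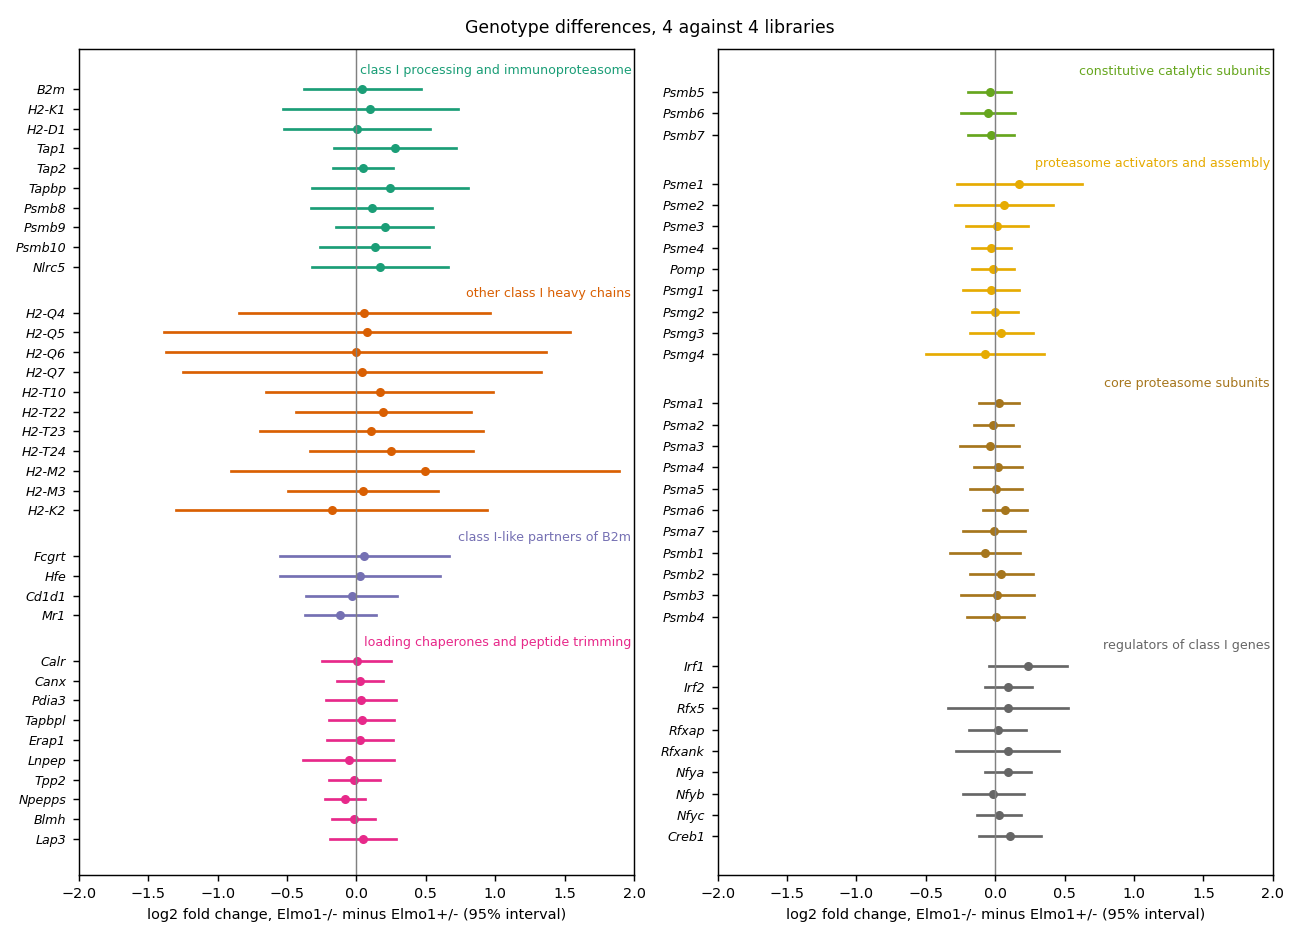
Log2 fold change of tested genes, Elmo1-/- minus Elmo1+/-, with its 95% interval from limma, by list. The intervals of all 10 class I processing and immunoproteasome genes cross 0, and those of core proteasome subunits are narrower than those of heavy chain genes.

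The difference between libraries numbered 1 and 2 and those numbered 3 and 4 was larger in these genes than that between the genotypes. It is described here without a test, because the numbers were set apart after the libraries had been compared and the labels give them no meaning. In 5 of the 10 genes (B2m, H2-K1, H2-D1, Psmb8 and Nlrc5) all 4 libraries numbered 1 and 2 lay above all 4 numbered 3 and 4, which held for 15.8% of all genes tested. In 0 of the 10 did they lie below, beside 18.1% of all genes tested. The median log2 difference, numbers 1 and 2 minus 3 and 4, was 0.43 for the 10 genes and 0.01 for all genes. It was 0.46 within the Elmo1-/- libraries and 0.38 within the Elmo1+/- libraries. In the mean of the standardised log2 values of the 10 genes, Elmo1-/- library 2 lay among libraries 3 and 4 of its genotype. That mean was 1.81, -0.21, -0.64 and -0.09 in Elmo1-/- libraries 1 to 4. In Elmo1+/- libraries 1 to 4 it was 0.35, 0.24, -0.84 and -0.61. In each of the 10 genes the difference between the numbers was larger in size than that between the genotypes. The same held for 11427 of the 14139 genes tested.

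The differences were largest for H2-K1 (0.68), Nlrc5 (0.59), H2-D1 (0.52), Tapbp (0.50), Psmb8 (0.44) and B2m (0.42). Tap1 had 0.36, Psmb10 0.30 and Psmb9 0.26, and Tap2 went the other way with -0.16. So the differences of the 2 subunits of the transporter had opposite signs, although the sets of libraries overlapped for both Tap1 and Tap2. Without Elmo1-/- library 1, which was the highest library in 9 of the 10 genes, the median was 0.30 and the same 5 genes had no overlap, beside 16.8% of all genes tested. With equal totals in place of size factors, H2-K1 had 0.65 and Tap2 -0.20. The lowest library was Elmo1+/- library 3 for 5 genes and Elmo1+/- library 4 for 3 genes.

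**Figure D4:**
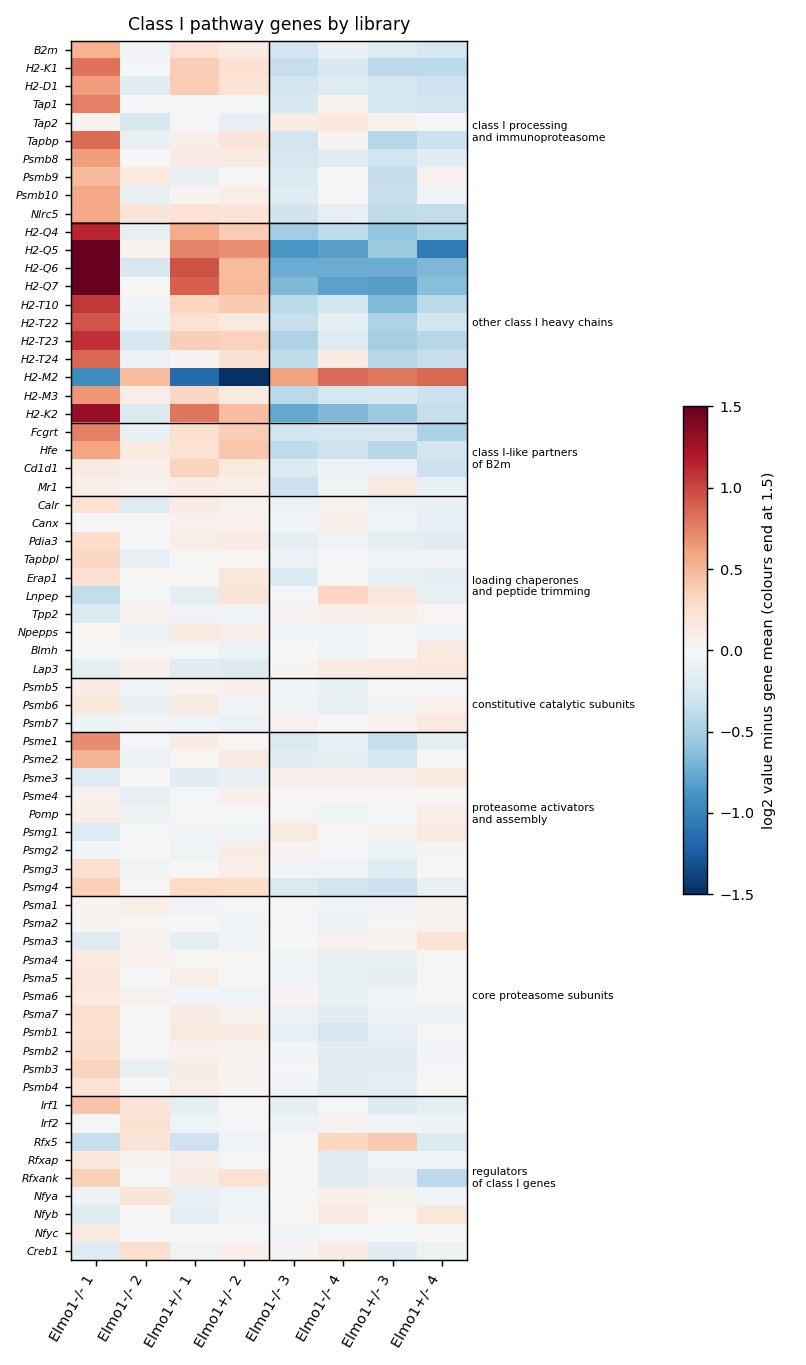
Log2 values minus each gene's mean, rows by list and columns by library with numbers 1 and 2 left of the line, colours ending at 1.5. Most heavy chain genes are red on the left and blue on the right, H2-M2 is the reverse, and core proteasome subunits stay pale.

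Most other heavy chain genes differed in the same direction. Of the 11 tested, 8 had all libraries numbered 1 and 2 above those numbered 3 and 4, beside 15.8% of all genes tested. In 1 they lay below, beside 18.1%. The median log2 difference of the 11 was 0.87, above the 0.68 of H2-K1, with a range from -1.55 to 1.64. It was 0.61 for H2-T22, 0.60 for H2-M3 and 0.52 for H2-T24, under that of H2-K1, and 1.47 for H2-Q7. H2-Q7 was at 686, 238, 440 and 329 in Elmo1-/- libraries 1 and 2 and Elmo1+/- libraries 1 and 2, and at 132 to 150 in the 4 others. H2-Q6 was at 151 to 594 against 106 to 111. H2-M2 was the exception, with 127, 341, 109 and 87.0 in the first 4 libraries and 373 to 447 in the others. Differences were smaller in size for Psmb5 (0.09), Psmb6 (0.08) and Psmb7 (-0.14), the last lower in numbers 1 and 2 without overlap. The 11 core proteasome subunits had a median difference of 0.14. In numbers 1 and 2, 4 of the 11 were higher without overlap, beside 15.8% of all genes tested. Psme1 had 0.41 and Psme2 0.29, the latter with overlap.

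**Figure D5:**
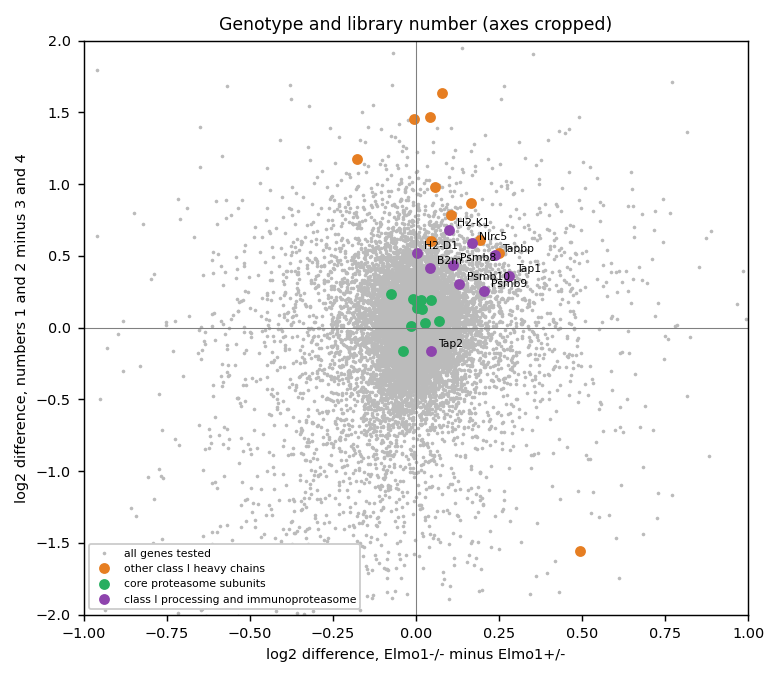
Log2 difference between the genotypes (x axis) and between libraries numbered 1 and 2 and those numbered 3 and 4 (y axis) for 14139 genes, of which 79 lie outside the axes. The 10 genes lie at 0.00 to 0.28 on the x axis and, apart from Tap2, at 0.26 to 0.68 on the y axis.

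Some cell markers also differed between the library numbers. All 10 osteoclast markers, among them Ctsk and Acp5, which encode cathepsin K and tartrate-resistant acid phosphatase, were lower in every library numbered 1 or 2 than in any numbered 3 or 4. Their summed level was 450909 to 692445 against 1029113 to 1173015 normalised counts, lowest in Elmo1-/- library 1. Of 6 macrophage markers, 3 were higher without overlap, and their sum was 1542848 to 1921747 against 1164260 to 1264732. The sum of 8 neutrophil markers overlapped, at 13141 to 22561 against 10346 to 13737, highest in Elmo1-/- library 1, and 1 of the 7 tested was higher without overlap. Over all genes tested, 15.8% were higher and 18.1% lower in numbers 1 and 2 without overlap. In bulk libraries fewer cells of a type and less RNA per cell cannot be told apart.

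Defining markers of lymphocytes were at or near 0. Of 6 T cell markers, Cd3g and Cd8b1 were at 0 in all libraries, and Cd3e, Cd3d and Cd8a were under 10, while Cd4 kept the sum at 42.8 to 234. All 4 NK cell markers were under 10 normalised counts, with Ncr1 and Prf1 at 0. Among 5 B cell markers Cd79a and Ms4a1 were under 10, and the sum, 257 to 678, came mostly from Cd79b and Ighm. Of 7 dendritic cell markers Cd209a was at 0, Flt3 and Siglech were under 10, and the sum was 273 to 486 in libraries numbered 1 and 2 against 502 to 633. Between the genotypes the osteoclast sums overlapped, at 450909 to 1173015 in Elmo1-/- and 589401 to 1091130.5 in Elmo1+/-, and 0 markers of any list were called. The part of the macrophage, neutrophil and osteoclast markers in the class I levels was not tested.

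The genes whose levels followed the mean of the 10 genes most closely over the 8 libraries were Shisa5 (Pearson r = 0.998), H2-T22 (0.996), Ddx24 (0.995), Trafd1 (0.995) and Irf7 (0.993). These were chosen from 14129 other genes, the libraries share their grouping by number, and the values are a description. Irf7, the interferon-induced regulator of type I interferon genes, had the widest range. It was at 25956, 6032, 4960 and 7253 in Elmo1-/- libraries 1 to 4 and at 9340, 9260, 4038 and 5759 in Elmo1+/- libraries 1 to 4. Elmo1-/- library 1 stood above every other library for Irf7, as it did for 9 of the 10 class I genes.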

How the data were processed

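RNA of 4 Elmo1-/- and 4 Elmo1+/- osteoclast cultures was sequenced. The authors' deposited values are a normalised signal, that is, reads per gene divided by 1 size factor per library. FastQC, STAR, featureCounts and DESeq2 are named in the submitters' processing notes, without a build or annotation, so these are unknown here. Columns of the authors' own genotype comparison (fold changes and p-values) were not used. Each value was a whole multiple of the worth of 1 read in its library (100%, tolerance 0.01 reads), giving totals of 20905502 to 40846651 per library. Identifiers were named by GENCODE M21 (GRCm38), with 512 of 46517 unmatched, and gene spans are from it.

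limma 3.58.1 (R 4.3.3, trend and robust) was fitted to log2(normalised count + 1) for genes at 10 or more in 4 or more libraries, and p was adjusted by Benjamini-Hochberg with a threshold of 0.05. A fold change is on that log2 scale. Alternatives were edgeR 4.0.16 and DESeq2 1.42.0 on the recovered reads, TMM and equal-total scaling, filters (none, 50), pseudocounts (0.5, 8), a replicate block, the number set as a term and each library left out. Fits within numbers 1 and 2 and within 3 and 4 were added after seeing the data. The 4 ratios of reads were tested by exact permutation. On simulated data limma recovered 65.7% of 99 genes changed 1 log2 unit and 92.8% of 97 changed 2, over 14080 genes. So many changed genes ease the adjusted threshold, while 1 gene was called in the real data. The median SE was also larger for the 10 genes, 0.19 beside 0.13 over all genes tested. These shares therefore do not tell how often a changed gene among the 10 would be called. Deviations of same-numbered libraries of the genotypes correlated at r = 0.156 to 0.703 over 4 pairs. Differently numbered libraries within numbers 1 and 2 or within 3 and 4 had r = 0.026 to 0.691. Both lowest values were those of Elmo1-/- library 2, 0.156 with Elmo1+/- library 2 and 0.026 with Elmo1+/- library 1. A block by number was therefore fitted as an alternative, and the correlations do not separate pairs from the split of 1 and 2 against 3 and 4. No pair of libraries in a genotype was a copy, with a chi-square per gene of at least 8.72. The mice are separate per the study's methods, with 1 library each.

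The genes and lists were chosen with earlier results of these data known. Named genes are the 10, Elmo1, per pathway list the highest and lowest log2 fold change with a fixed set of subunits and regulators, and the 5 most like the mean. Other genes named for motifs, markers or library numbers were chosen after their values were seen. Some items of the lists are not reported here.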

Additional observations from a re-analysis of the deposited data

Results flagged for a closer look

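In groups of 4 libraries, 86 groups were checked for 1 library far from the others by Dixon's ratio, and 10 passed its 95% critical value. Chance alone would give about 4.3 over the 86 groups of both genotypes together. Of these, 9 were high values of Elmo1-/- library 1. The ratio, the gap to the nearest library over the range of the group, was 0.898 for H2-D1, 0.834 for Psme1, 0.900 for Psme2, 0.852 for H2-Q4, 0.908 for H2-Q6, 0.861 for H2-T22, 0.902 for H2-T23, 0.856 for H2-K2 and 0.874 for Fcgrt. The groups of a genotype share the same 4 libraries and are not independent. The remaining one was Mr1 in Elmo1+/- library 4, low, with 0.830. The genotype log2 fold change within numbers 1 and 2 and within 3 and 4 was 0.37 and 0.04 for Psmb9, 0.20 and 0.03 for Psmb8, -0.05 and 0.05 for H2-D1 and -0.02 and 0.11 for Tap2. By a limma interaction term 0 of the 10 genes were called for a difference between these sets, with 0 at an unadjusted p under 0.05 and a lowest adjusted p of 1.00 (378 of all genes had an unadjusted p under 0.05).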

How the results depend on the processing

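None of the 10 genes was called under any of 20 alternatives (lowest adjusted p 0.937), and of 200 fitted values 185 kept their direction and 15 did not, 13 of them with 1 library left out. With 1 library left out, log2 fold changes ran from -0.12 to 0.14 for B2m, -0.15 to 0.24 for H2-K1, -0.21 to 0.12 for H2-D1, -0.000185 to 0.13 for Tap2, -0.00226 to 0.37 for Tapbp, -0.0803 to 0.21 for Psmb8 and -0.042 to 0.21 for Psmb10. Of these, Elmo1-/- library 1 turned B2m, H2-K1, H2-D1, Tapbp, Psmb8 and Psmb10 (-0.125, -0.153, -0.207, -0.00226, -0.0803 and -0.042), and Elmo1+/- libraries 3 and 4 turned B2m (-0.0137 and -0.0365), H2-K1 (-0.0128 and -0.0155) and H2-D1 (-0.0852 and -0.102). Fits with 1 library left out had no term for library number. In them the genotypes differed in their share of numbers 1 and 2. Among libraries numbered 1 and 2 alone, H2-D1 was at -0.0496 and Tap2 at -0.0197, while B2m was at 0.06 and H2-K1 at 0.10. Among numbers 3 and 4 alone, B2m was at 0.02, H2-K1 at 0.11 and H2-D1 at 0.05. The ratio of Psmb10 to Psmb7 ran from -0.036 to 0.27 with 1 library left out, and that of B2m to heavy chains from -0.0399 to 0.0646. Genes called were 1 with limma and edgeR and 2 with DESeq2, 1 to 2 with 1 library left out (2 without Elmo1+/- library 2) and 2 among numbers 3 and 4 alone. The cause of these changes was not tested. With the replicate block, 0 of the 10 genes and 0 pathway genes were called, Elmo1 had -2.44, and 1 gene was called. In the pairing, the exact sign-flip p of the 4 ratios was 0.125, 0.125, 0.5 and 0.875, the smallest it can give being 0.125. Lowest unadjusted p among the 10 with the block was 0.0485 (limma), for Nlrc5, the only one under 0.05. Over all genes, 389 of 14139 had an unadjusted p under 0.05 in that fit. Under each scaling the median log2 difference of all genes stayed within 0.03 of 0. Intervals over 4 mice a genotype limit the precision. They come from the fit without a term for library number. All 10 include 0 on the log2 scale, and a true difference of any size inside them remains possible in that fit.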
